A study of Mus musculus with 12 samples.

Results

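The 9 myelin genes Mbp, Mag, Mog, Mobp, Opalin, Cnp, Mal, Cldn11 and Ugt8a were followed in the frontal cortex of mice with low, partly restored and normal Grin1. They were taken by symbol. Every gene model in the authors' 3 tables whose symbol cell held any of these names was kept, without regard to its values. The tables held 10 such models among 30995 for knockdown against wild type, 9 among 31041 for rescue against knockdown and 10 among 31042 for rescue against wild type. Cuffdiff, the authors' program for comparing groups of libraries, tested all of these myelin models, so each of the 9 genes had a tested model in each table.

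Polyadenylated RNA came from 12 male mice of 14 weeks: 4 rescue animals (labelled GluN1Cre), 4 knockdown animals (GluN1) and 4 wild-type animals (WT). The series title calls the GluN1 mice Grin1 knockdown and the GluN1Cre mice Grin1 Cre rescue. All 3 groups were F1 hybrids of C57Bl/6 and 129/SvlmJ. All of them, controls included, received tamoxifen from 10 weeks of age for 2 weeks, at 6 mg by oral gavage together with roughly 14 mg taken with the chow. Tamoxifen switches on inducible versions of Cre recombinase. The knockdown allele and the promoter and cell types that drive Cre are not given in the sources used here. By the group names, no mice carried Cre without the knockdown, so Cre itself and restored Grin1 cannot be told apart. Grin1, which encodes a subunit that NMDA-type glutamate receptors need, lay at 56.7 FPKM in knockdown against 138 FPKM in wild-type cortex, at 86.7 FPKM in rescue against 65.7 FPKM in knockdown, and at 78.0 FPKM in rescue against 138 FPKM in wild-type cortex.

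Myelin is the spirally wrapped membrane of oligodendrocytes that insulates axons. Its compact layers are held together by proteins such as Mbp, its uncompacted rims and innermost turn carry enzymes and adhesion proteins such as Cnp and Mag, and its lipids are rich in galactosylceramide. The transcripts of these genes are among the most abundant of oligodendrocytes and are used to judge how much mature myelin-forming tissue a brain sample holds. Oligodendrocytes and their precursors also respond to glutamate, and the precursors carry NMDA receptors.

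Levels are given in FPKM, fragments scaled for transcript length and library size, so they can be compared between genes. Each table holds 1 FPKM value per group, estimated over its 4 libraries, and read depth and values per animal are not given in the tables. No spread between animals can therefore be shown. A model was called changed at p under 0.05 together with q under 0.10, the limits set in the design text. A standard error for each log2 fold was worked back from the authors' deposited p, and the 95% intervals below rest on it. The deposited test statistic would give wider intervals, since at the median model it was only 0.497 of the deviate that the p-value implies.

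Most myelin transcripts lay at nearly the same level in knockdown and wild-type cortex, and Opalin was the exception. Opalin fell to 72.0% of its wild-type level. The other 9 myelin models lay between -0.08 and 0.09 on the log2 scale and none of them was called. Of the 10 myelin models 1 was called, against 2.52% of all 18417 tested models (0.858% called lower and 1.66% called higher). It was also the 1 myelin model with an unadjusted p under 0.05, as were 7.91% of all tested models. A count of 1 says little of the myelin genes as a group. Their median log2 fold was -0.06 (-0.05 without Opalin), against -0.01 over the 13920 tested models with a mean of at least 1 FPKM.

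Opalin encodes a small glycosylated transmembrane protein of oligodendrocytes and central myelin. It had 4.73 FPKM in knockdown cortex, against 6.57 FPKM in wild-type cortex in the authors' deposited table. The log2 fold was -0.47 with a worked-back standard error of 0.15 and an interval from -0.78 to -0.17 (p = 0.00215 and q = 0.0888 in the table of the authors). That fold lay at percentile 0.761 of all tested models with a mean of at least 1 FPKM. The call rests on the q threshold of 0.10: the authors' own table marks this row as not significant, and at q under 0.05, passed by 1.94% of all tested models, 0 of the 10 myelin models were called by Cuffdiff. With a standard error from the deposited test statistic, 0.31, zero lies inside the interval. The table of rescue against knockdown also gave Opalin 4.73 FPKM in knockdown cortex. The table of rescue against wild type gave 6.54 FPKM in wild-type cortex. These values come from the same 4 libraries of each group, so their match adds no support for the difference.

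In the RefSeq promoter table (build GRCm38.p6) 8 of the 9 myelin genes were looked up, with 10 promoters among them, each reaching from 250 bases before to 50 bases after a transcript start. They were searched on both strands for the SOX motif ACAAAG, the core that Sox10 and related factors can bind, and for the E-box CAGCTG, a sequence that basic helix-loop-helix factors such as the Olig proteins can bind. The promoters of Opalin, Cnp and Mal are shown as examples: Opalin was the called gene, and Cnp and Mal were among the uncalled genes. Capitals mark the motif letters on either strand, and each sequence is written 5′ to 3′ along its gene.
Opalin, chr19:41077064-41077363, minus strand: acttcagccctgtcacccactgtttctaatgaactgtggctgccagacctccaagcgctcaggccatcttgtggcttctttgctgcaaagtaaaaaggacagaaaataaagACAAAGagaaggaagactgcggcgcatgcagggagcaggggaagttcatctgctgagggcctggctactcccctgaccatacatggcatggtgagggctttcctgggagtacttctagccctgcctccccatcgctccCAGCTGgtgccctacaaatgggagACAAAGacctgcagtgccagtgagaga
Cnp, chr11:100574689-100574988, plus strand: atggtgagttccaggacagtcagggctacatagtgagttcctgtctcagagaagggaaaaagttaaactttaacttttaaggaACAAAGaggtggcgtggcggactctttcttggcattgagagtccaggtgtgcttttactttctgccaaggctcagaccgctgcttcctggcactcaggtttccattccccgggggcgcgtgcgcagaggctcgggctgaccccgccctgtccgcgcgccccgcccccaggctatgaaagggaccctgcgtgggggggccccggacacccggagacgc
Mal, chr2:127656646-127656945, minus strand: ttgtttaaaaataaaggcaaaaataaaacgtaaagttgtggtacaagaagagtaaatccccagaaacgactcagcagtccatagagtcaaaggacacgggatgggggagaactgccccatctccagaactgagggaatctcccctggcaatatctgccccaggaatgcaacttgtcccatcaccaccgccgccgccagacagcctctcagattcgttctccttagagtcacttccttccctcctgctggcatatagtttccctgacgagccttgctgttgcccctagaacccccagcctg
The Opalin promoter held the SOX motif at 2 places, with first bases at -139 and 24 relative to the start, and the E-box with its first base at -1. The Cnp promoter held 1 SOX motif, at -167, and the Mal promoter held neither motif. The Mobp promoter, not shown, held 6 SOX motifs, the most of the 10 promoters, and no Mobp model was called. Among the 8 genes, 4 had a promoter with the SOX motif (Mag, Mobp, Opalin and Cnp) and 1, Opalin, had the E-box. Counted by promoter, 5 of the 10 held the SOX motif, including overlapping Mag windows that share a site, and 1 held the E-box. Over all 32851 promoters in the table, 18.7% held the SOX motif and 16.3% held the E-box. These matches describe the letters in a short window and say nothing of factor binding.

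Among the structural genes of compact myelin, Mbp, whose product binds the cytoplasmic faces of the membrane to each other, had 537 FPKM in knockdown and 531 FPKM in wild-type cortex (log2 fold 0.02, interval -0.14 to 0.18). Its mean level lay at percentile 99.7 of tested models with at least 1 FPKM. Mobp, another small basic protein of compact myelin, has its larger values in a model that carries both its symbol and that of the ribosomal protein gene Rpsa. In GENCODE M21 the 2 genes lie on the same strand of chromosome 9, 17337 bases apart (Rpsa from 120127689 to 120132369, Mobp from 120149707 to 120181484 in GRCm38). The merged model had 135 FPKM in knockdown and 133 FPKM in wild-type cortex, and the share that is Mobp cannot be read from it. A smaller model that carries the symbol Mobp alone, at the same locus, had 2.05 FPKM in knockdown and 2.17 FPKM in wild-type cortex. Values for Mobp are therefore uncertain.

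Mal, a proteolipid of membrane trafficking in myelinating cells, had 39.3 FPKM in knockdown and 41.4 FPKM in wild-type cortex (log2 fold -0.07, interval -0.23 to 0.08). Cldn11, the claudin that forms tight junction strands between myelin layers, had 39.4 FPKM in knockdown and 41.5 FPKM in wild-type cortex (log2 fold -0.07, interval -0.24 to 0.09). Both levels were slightly lower in knockdown cortex, and neither difference was called.

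At the axon-facing, outer and uncompacted surfaces the picture was the same. Cnp, a cyclic nucleotide phosphodiesterase of uncompacted myelin, had 67.2 FPKM in knockdown and 69.8 FPKM in wild-type cortex (log2 fold -0.06, interval -0.21 to 0.10). Mag, the adhesion protein of the membrane next to the axon, had 32.5 FPKM in knockdown and 33.8 FPKM in wild-type cortex (log2 fold -0.05, interval -0.21 to 0.10). Mog, an immunoglobulin-type protein of the outermost layer, had 15.4 FPKM in knockdown and 15.2 FPKM in wild-type cortex. Its interval, 0.83-fold to 1.24-fold, was wider than those of all models but Opalin and the smaller Mobp model. The assembled Mog model runs from 36967284 to 37023398 on chromosome 17, far past the annotated gene (37010743 to 37023398 in GENCODE M21), so reads of neighbouring genes in it cannot be separated.

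Ugt8a encodes the enzyme that makes galactosylceramide, the main glycolipid of myelin. It had 10.2 FPKM in knockdown and 9.59 FPKM in wild-type cortex (log2 fold 0.09, interval -0.10 to 0.28), the highest fold of the 10 models, and it was not called. Summed over the 10 models, levels came to 883 FPKM in knockdown and 884 FPKM in wild-type cortex. The ratio was 0.999, and 0.996 without the merged Mobp,Rpsa model. Mbp makes up most of either sum. In bulk tissue, fewer oligodendrocytes and less RNA per oligodendrocyte cannot be told apart.

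**Figure D1:**
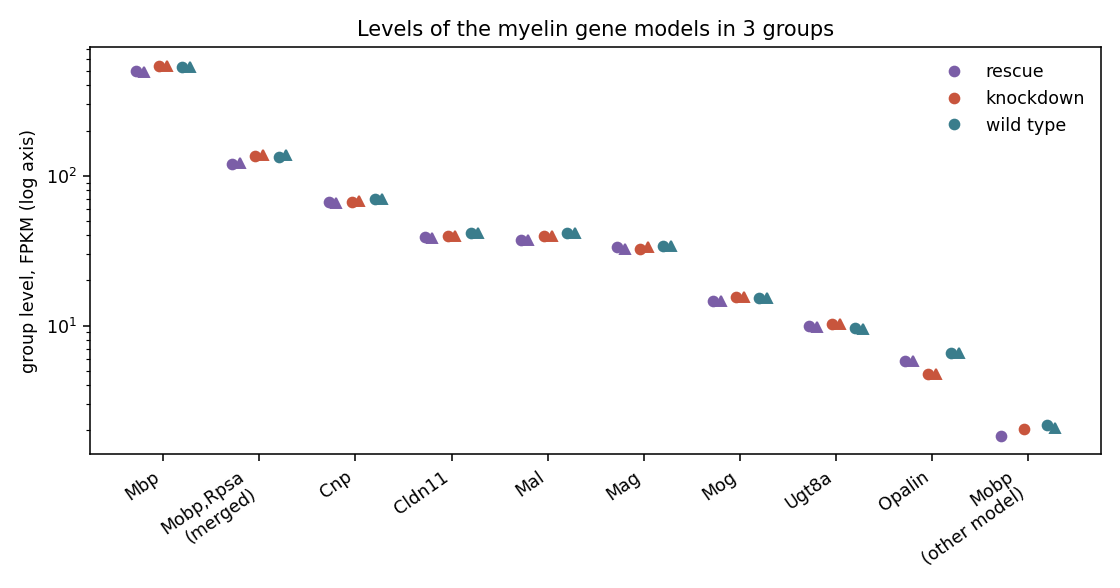
Level in FPKM (log axis) of each myelin gene model in rescue, knockdown and wild-type cortex, with 1 point for each table that holds the group (circle, the earlier of its tables in the order knockdown/wild type, rescue/knockdown, rescue/wild type, and triangle, the later). Mbp is highest, the groups lie close together for most models, and Opalin is lowest in knockdown at 4.73 FPKM.

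The order of the levels was the same in every group. In wild-type cortex it ran from Mbp (530.0 to 531 FPKM over the 2 tables) through merged Mobp,Rpsa (133 to 138), Cnp (69.8 in both tables), Cldn11 (41.4 to 41.5), Mal (41.2 to 41.4), Mag (33.8 to 34.0), Mog (15.2) and Ugt8a (9.45 to 9.59) to Opalin (6.54 to 6.57). Cldn11 and Mal lay as close together as their values in different tables, so their order is not settled. The other neighbours lay farther apart than the largest gap between tables for any myelin model, 0.05 on the log2 scale. Spread between animals is unknown, so this compares group estimates alone.

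Relative to Mbp, the composition of the myelin transcripts moved little except for Opalin. Opalin stood at 1.17% of the Mbp level in rescue, 0.878% in knockdown and 1.24% in wild-type cortex. The highest of these 3 percentages was 1.41 times the lowest. For the other models that ratio of percentages was between 1.03 (Mog) and 1.11 (Ugt8a). On the levels themselves the highest group was 1.39 times the lowest for Opalin, and between 1.03 (Mag) and 1.16 times (the smaller Mobp model) for the others, Mbp included.

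Between rescue and knockdown cortex no myelin gene was called by Cuffdiff. Of the 9 models 0 were called, against 0.689% of all 18430 tested models, and 1 had an unadjusted p under 0.05, as did 4.19% of all tested models. Opalin lay higher in rescue, and the other 8 models had log2 folds between -0.21 and -0.00. The smaller Mobp model has no row of its own in this table. The median log2 fold of the 9 models was -0.04, against -0.00 over all tested models with at least 1 FPKM.

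Opalin had 5.80 FPKM in rescue and 4.73 FPKM in knockdown cortex, 1.22 times the knockdown level. The log2 fold was 0.29 with a worked-back standard error of 0.16 and an interval from -0.01 to 0.60 (p = 0.0605 in the table of the authors). The direction is opposite to that of knockdown against wild type, but these tables share the knockdown group, so the 2 folds are not independent. The merged Mobp,Rpsa model had the smallest p, at 119 FPKM in rescue and 137 FPKM in knockdown cortex (log2 fold -0.21, interval -0.36 to -0.05, p = 0.00755 and q = 0.517 in the table of the authors).

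Mbp had 497 FPKM in rescue and 540.0 FPKM in knockdown cortex (log2 fold -0.12, interval -0.28 to 0.04). Mal had 37.4 FPKM in rescue and 39.4 FPKM in knockdown cortex, and Cldn11 38.8 FPKM in rescue and 39.7 FPKM in knockdown cortex. Mag was the closest match of all, at 33.2 FPKM in rescue and 33.3 FPKM in knockdown cortex with an interval from 0.896-fold to 1.11-fold. Cnp had 66.6 FPKM in rescue and 67.6 FPKM in knockdown cortex. Mog had 14.6 FPKM in rescue and 15.5 FPKM in knockdown cortex. Ugt8a had 9.90 FPKM in rescue and 10.2 FPKM in knockdown cortex. None of these differences passed the test. The summed level of the 9 models was 823 FPKM in rescue and 888 FPKM in knockdown cortex. The ratio was 0.927, and 0.938 without the merged Mobp,Rpsa model.

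**Figure D2:**
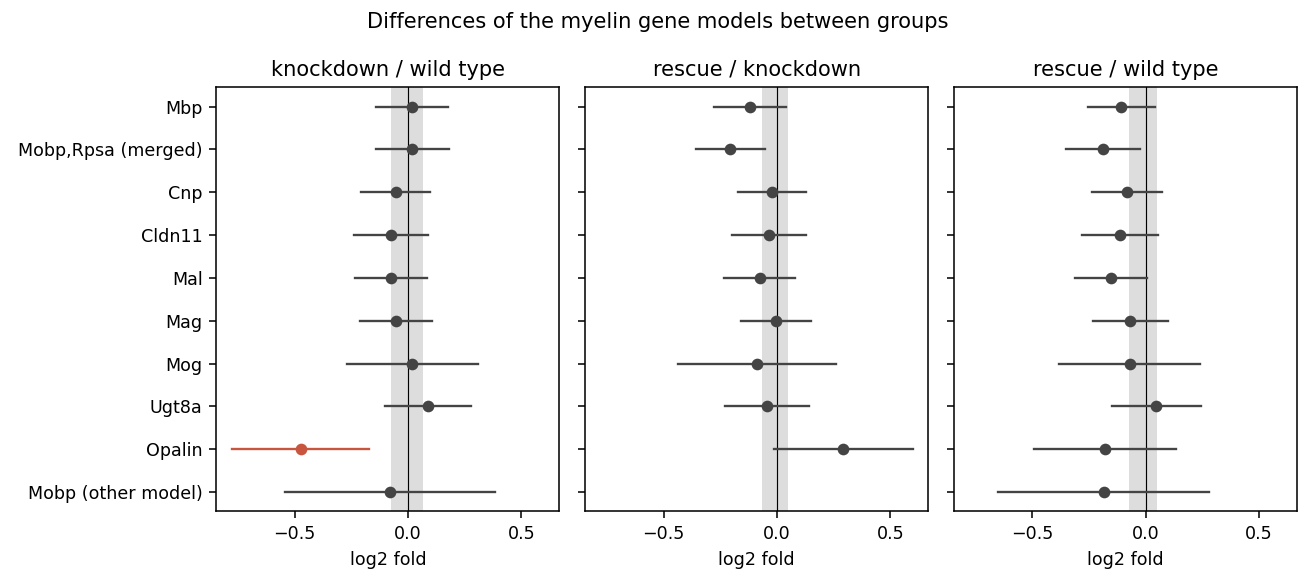
Log2 fold of each myelin gene model in the 3 comparisons, with the 95% interval worked back from the deposited p as a line and the called model in red. The grey band spans the middle 50% of all tested models with at least 1 FPKM. Opalin in knockdown against wild type is the called model, at -0.47.

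Between rescue and wild-type cortex again no myelin gene was called by Cuffdiff, but 9 of 10 models lay lower in rescue. Of the 10 models 0 were called, against 0.841% of all 18429 tested models, and 1 had an unadjusted p under 0.05, as did 4.32% of all tested models. The median log2 fold was -0.11, against -0.01 over all tested models with at least 1 FPKM, of which 55.8% lay lower in rescue. No test over the list was made, and all genes were measured in the same libraries, so their common direction is a description of these libraries.

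The lowest fold was that of the merged Mobp,Rpsa model, with 121 FPKM in rescue and 138 FPKM in wild-type cortex (log2 fold -0.19, interval -0.35 to -0.02, p = 0.0248 and q = 0.894 in the table of the authors). Opalin had 5.77 FPKM in rescue and 6.54 FPKM in wild-type cortex (log2 fold -0.18, interval -0.49 to 0.13). Its level in rescue cortex thus lay between those of knockdown and wild-type cortex and was called different from neither. The smaller Mobp model had 1.84 FPKM in rescue and 2.09 FPKM in wild-type cortex.

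Mal had 37.0 FPKM in rescue and 41.2 FPKM in wild-type cortex (log2 fold -0.15, interval -0.31 to 0.00, p = 0.0566 in the table of the authors). Cldn11 had 38.2 FPKM in rescue and 41.4 FPKM in wild-type cortex (log2 fold -0.11), and Mbp 492 FPKM in rescue and 530.0 FPKM in wild-type cortex (log2 fold -0.11). Cnp, Mog and Mag had log2 folds of -0.08, -0.07 and -0.07. Ugt8a was the 1 model that lay higher in rescue, at 9.76 FPKM against 9.45 FPKM in wild-type cortex. The summed level of the 10 models was 818 FPKM in rescue and 887 FPKM in wild-type cortex, a ratio of 0.922, and without the merged Mobp,Rpsa model the ratio was 0.930.

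Other genes of the oligodendrocyte lineage were taken in 6 lists with 81 genes, all of which had a tested model in each table. In knockdown against wild type 2 of their 86 models rose, 0 fell and 84 were not called, a share of 2.33% against the 2.52% of all tested models. Both were in the list of mature oligodendrocyte genes outside myelin. In that list 6 of 26 models had an unadjusted p under 0.05, as did 9 of the 86 and 7.91% of all tested models. Klk6, a secreted serine protease, had 2.54 FPKM in knockdown and 1.27 FPKM in wild-type cortex (log2 fold 0.99), and Apod, a lipid-carrying protein, had 68.2 FPKM in knockdown and 48.9 FPKM in wild-type cortex (log2 fold 0.48). Each had a q of 0.00456 in the authors' deposited table. Both lay higher in the group in which Opalin lay lowest.

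The tables gave closer levels for Klk6 than for Apod. Both tables of a group quantify the same 4 libraries, so a match says nothing of the spread between animals. The assembled Klk6 model has the same boundaries in each table. Klk6 had 2.54 FPKM in knockdown cortex in both tables that hold it. Apod had 68.2 FPKM in knockdown cortex in the table against wild type and 52.2 FPKM in the table against rescue, and in rescue cortex 41.9 and 53.8 FPKM. The assembled Apod model starts at 31291730 on chromosome 16 in the tables with wild type and at 31296192 in the other. In rescue against knockdown Apod fell, at 41.9 FPKM in rescue and 52.2 FPKM in knockdown cortex (log2 fold -0.32, with q at 0.0118 as deposited by the authors), the 1 called model among 86 where 0.559% of all tested models were called lower. Klk6 had 1.86 FPKM in rescue and 2.54 FPKM in knockdown cortex (Cuffdiff q = 0.47).

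**Figure D3:**
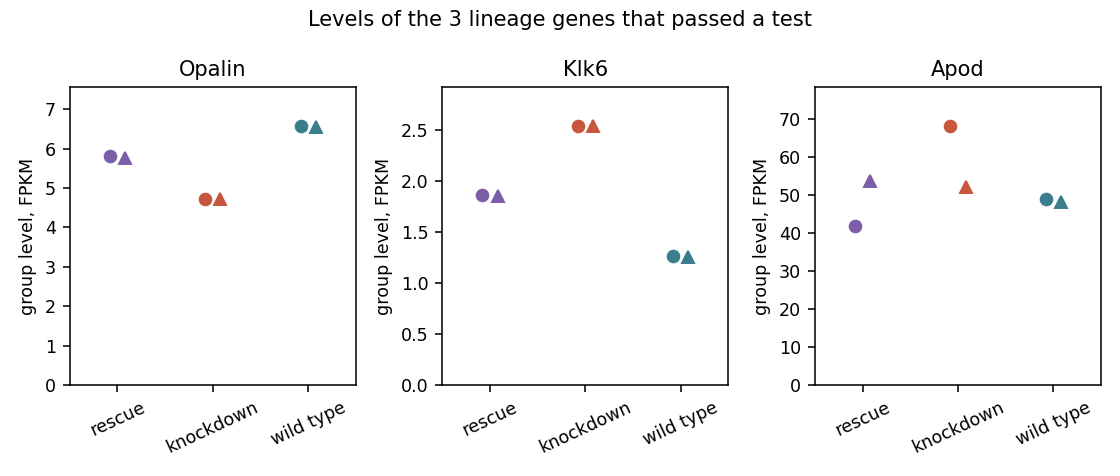
Level in FPKM of Opalin, Klk6 and Apod in rescue, knockdown and wild-type cortex, with 1 point for each table that holds the group (circle, the earlier table, and triangle, the later, in the order knockdown/wild type, rescue/knockdown, rescue/wild type). Opalin is lowest and Klk6 highest in knockdown, with table estimates that coincide, while the 2 estimates of Apod in knockdown cortex are 68.2 and 52.2 FPKM.

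The other structural and adhesion genes of myelin were not called in any comparison (0 of 18, 0 of 18 and 0 of 17 models for knockdown against wild type, rescue against knockdown and rescue against wild type). Their medians were 0.03, -0.01 and -0.01. The smallest p in knockdown against wild type belonged to the connexin gene Gjb1, with 4.30 FPKM in knockdown and 3.42 FPKM in wild-type cortex (q = 0.463 by Cuffdiff), and the tetraspanin gene Tspan2, with 17.2 FPKM in knockdown and 19.3 FPKM in wild-type cortex (q = 0.553). In rescue against knockdown they belonged to Hapln2, a link protein of nodes of Ranvier, at 5.42 FPKM in rescue and 6.66 FPKM in knockdown cortex, and Pmp22 at 10.1 FPKM in rescue and 11.5 FPKM in knockdown cortex. In rescue against wild type they belonged to the junction protein gene Jam3, in its larger model, at 12.1 FPKM in rescue and 13.7 FPKM in wild-type cortex, and again Hapln2, at 5.36 FPKM in rescue and 6.17 FPKM in wild-type cortex.

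The genes of myelin lipid synthesis and turnover, the pathway of Ugt8a, were not called either (0 of 15, 0 of 14 and 0 of 17 models, medians 0.04, -0.03 and -0.02). Acsbg1, an acyl-CoA synthetase, had 52.4 FPKM in knockdown and 46.0 FPKM in wild-type cortex, and 44.8 FPKM in rescue against 53.1 FPKM in knockdown cortex. Elovl7, a fatty acid elongase, had 3.22 FPKM in knockdown and 2.88 FPKM in wild-type cortex. Gltp, a glycolipid transfer protein gene, had 14.2 FPKM in rescue and 15.3 FPKM in knockdown cortex. Galc, which breaks galactosylceramide down, had 7.95 FPKM in rescue and 7.71 FPKM in wild-type cortex in its larger model, and 0.882 FPKM in rescue and 0.749 FPKM in wild-type cortex in a smaller one with the smaller p. Gal3st1, which makes sulfatide from galactosylceramide, had 5.37 FPKM in rescue and 6.00 FPKM in wild-type cortex.

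Transcription factors of the lineage had 0 calls among 12 models in each comparison, with medians of 0.07, -0.09 and -0.03. Of the 10 models with a mean of at least 1 FPKM, which include both of Olig2, 9 lay higher in knockdown than in wild-type cortex. In rescue against knockdown 10 lay lower, and these comparisons share the knockdown group. In rescue against wild type 6 of 10 lay lower. Over all tested models with at least 1 FPKM, 53.2% lay lower in knockdown against wild type. The shares lower in rescue were 52.5% against knockdown and 55.8% against wild type. Olig2, a factor of lineage specification, has 2 models: the larger had 10.4 FPKM in knockdown and 9.83 FPKM in wild-type cortex, and the smaller 2.41 FPKM in knockdown and 1.18 FPKM in wild-type cortex, with a standard error of 0.66 on the log2 scale (q = 0.892 by Cuffdiff). Sox10, which drives myelin gene transcription, had 9.03 FPKM in knockdown and 8.49 FPKM in wild-type cortex. Myrf, the myelin regulatory factor, is listed under its older symbol Gm98 and had 6.93 FPKM in rescue and 7.65 FPKM in knockdown cortex. In knockdown against wild type its knockdown level was 6.45 FPKM, so the values for Myrf are uncertain. St18 had 0.579 FPKM in rescue and 0.668 FPKM in knockdown cortex. Sox8 had 12.2 FPKM in rescue and 13.6 FPKM in wild-type cortex, and the smaller Olig2 model 1.67 FPKM in rescue and 0.915 FPKM in wild-type cortex, where the larger had 9.44 FPKM in rescue and 9.83 FPKM in wild-type cortex.

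In the list of other mature oligodendrocyte genes, rescue against wild type gave 0 calls among 27 models and a median of -0.03. Il33, a nuclear cytokine, had 8.75 FPKM in rescue and 10.9 FPKM in wild-type cortex (log2 fold -0.32, p = 0.0011 and q = 0.124 in the table of the authors), and Klk6 had 1.85 FPKM in rescue and 1.26 FPKM in wild-type cortex (log2 fold 0.55, q = 0.465).

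Genes of newly formed oligodendrocytes had 0 calls among 8 models in each comparison (medians 0.06, -0.02 and 0.05). Tmem163, a zinc transporter gene, had 8.40 FPKM in knockdown and 5.70 FPKM in wild-type cortex, and 6.25 FPKM in rescue against 8.60 FPKM in knockdown cortex. The sialidase gene Neu4 had 2.26 FPKM in knockdown and 2.06 FPKM in wild-type cortex, and Bcas1, an early myelination gene, 23.7 FPKM in rescue and 25.4 FPKM in knockdown cortex. Gpr17, a receptor of differentiating precursors, had 10.5 FPKM in rescue and 9.48 FPKM in wild-type cortex, and Enpp6, a phosphodiesterase, 1.47 FPKM in rescue and 1.32 FPKM in wild-type cortex. Oligodendrocyte precursor genes had 0 calls among 7 models in each comparison (medians 0.09, -0.08 and 0.01). Matn4, a matrilin, had 6.00 FPKM in knockdown and 4.76 FPKM in wild-type cortex (Cuffdiff q = 0.267), 5.44 FPKM in rescue and 6.01 FPKM in knockdown cortex, and 5.30 FPKM in rescue and 4.70 FPKM in wild-type cortex. C1ql1 had 8.86 FPKM in knockdown and 7.50 FPKM in wild-type cortex, and 8.20 FPKM in rescue and 7.46 FPKM in wild-type cortex. In rescue against knockdown C1ql1 had 6.88 FPKM in rescue and 7.60 FPKM in knockdown cortex, so its levels in these groups differed between comparisons. Lhfpl3 had 10.9 FPKM in rescue and 12.9 FPKM in knockdown cortex (Cuffdiff q = 0.47).

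**Figure D4:**
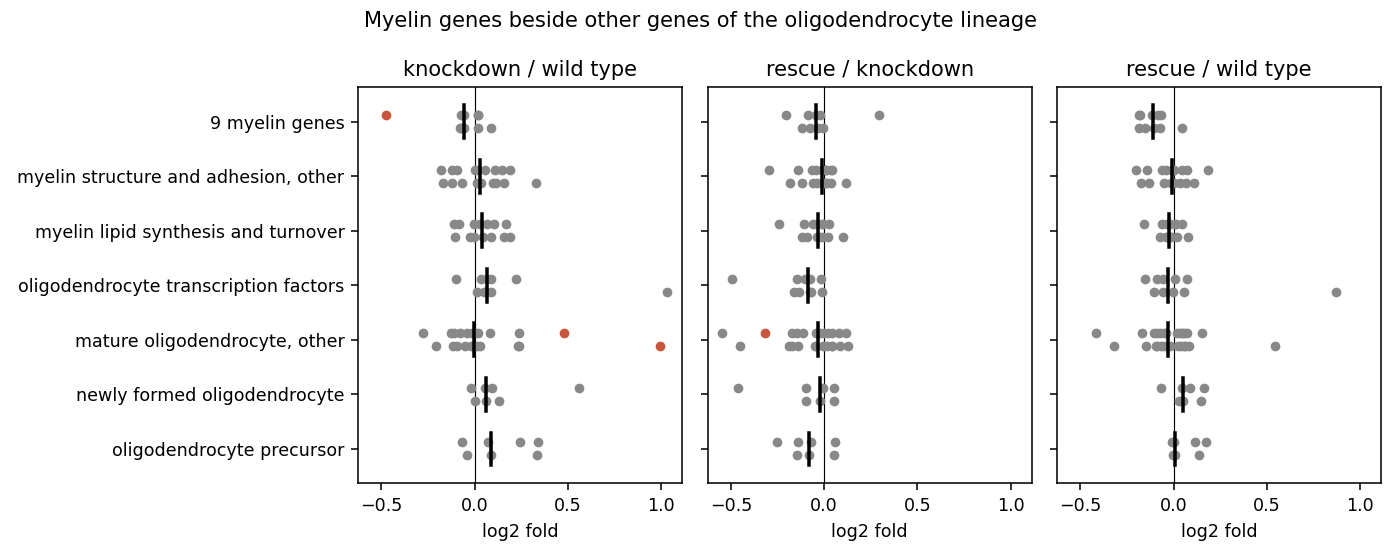
Log2 folds of the 9 myelin genes and of the 6 lists of other oligodendrocyte lineage genes in the 3 comparisons, for models with a mean of at least 1 FPKM. Points are gene models, called models are red and black bars are list medians, which all lie between -0.11 and 0.09.

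Lists of markers of other cells and regions also held called genes. Slc17a7, a glutamate transporter gene of excitatory neurons, had 598 FPKM in knockdown and 626 FPKM in wild-type cortex. Its level alone does not settle which regions the tissue held. None of the 8 cortical neuron models was called in knockdown against wild type. Of these 8, 7 lay lower (53.2% of all tested models with at least 1 FPKM), with a median log2 fold of -0.14. An unadjusted p under 0.05 was found for 3 (7.91% of all tested models). The smallest p were those of Tbr1 (q = 0.206) and Camk2a (q = 0.373). In rescue against knockdown 6 of 8 lay higher (median 0.08). In rescue against wild type 6 of 7 lay lower (median -0.08, with 55.8% of all lower). Neither held a called model. Olfactory bulb genes rose in knockdown against wild type in 6 of 7 models (Doc2g,Nudt8, Eomes, S100a5, Shisa3, Tbx21 and Th). All 7 models summed to 75.8 FPKM in knockdown and 24.9 FPKM in wild-type cortex. The same 6 models fell in rescue against knockdown, where all 7 summed to 42.2 FPKM in rescue and 74.8 FPKM in knockdown cortex. In rescue against wild type 5 of 6 bulb models rose, where 0.364% of all tested models were called higher and 0.478% lower. Of the striatal genes, Adora2a, Drd1a, Drd2 and Ppp1r1b fell in knockdown against wild type, with log2 folds between -0.65 and -0.28. These 4 and Rgs9 fell in rescue against wild type, with log2 folds between -1.18 and -0.41. Whether the differences of these bulb and striatal markers bear on the Opalin and Mobp,Rpsa values was not tested.

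Astrocyte genes Gfap and Aqp4 rose in knockdown against wild type (2 of 6 models). Gfap fell in rescue against knockdown (1 of 6) and rose in rescue against wild type (1 of 6). Over all tested models, 2.52%, 0.689% and 0.841% were called in knockdown against wild type, rescue against knockdown and rescue against wild type. None of 6 microglial models was called in any comparison, with summed levels of 127 FPKM in both knockdown and wild-type cortex. The peripheral myelin list was not absent as a whole: Drp2 lay between 14.8 and 17.5 FPKM over the groups, Prx between 0.354 and 0.418 FPKM, and Pmp2 was listed at 0 in every group. In knockdown against wild type 1 of its 4 tested models was called, in rescue against knockdown 0 of 3 by Cuffdiff (0 also at an unadjusted p under 0.05), and in rescue against wild type 1 of 3. The called gene was Egr2, which also responds to neuronal activity, with 1.25 FPKM in knockdown and 2.14 FPKM in wild-type cortex, and 1.13 FPKM in rescue and 2.13 FPKM in wild-type cortex. Of the choroid plexus list, 2 models were tested in each comparison and 0 were called. Ttr lay at or under 0.136 FPKM and was not tested. Kl lay between 0.658 and 0.744 FPKM over the groups. The model of Clic6, which also carries another symbol, had 0.258 FPKM in rescue and 0.496 FPKM in wild-type cortex (Cuffdiff q = 0.126).

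The genes whose 3 log2 folds lay closest to the medians of the myelin genes, among 5808 genes with a mean of at least 10 FPKM each with a single model and on no list, were Polg, Papss1, Kctd3 and Ptpn1. Polg, the mitochondrial DNA polymerase gene, lay at a distance of 0.01 with log2 folds of -0.06, -0.05 and -0.11. The measure rests on 3 folds from 3 groups, and 348 of these genes lay within 0.05 of the same point, so such a pattern was common.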

How the data were processed

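Reads were processed on a Galaxy server and groups were compared with Cuffdiff, per the series' design text. Builds mm10 and GRCm38 are named in the submitters' processing notes, as are Cuffdiff 2.2.1.3, Cufflinks 2.2.1.0, TopHat2 2.1.0, TopHat and FastQC 0.65. The authors deposited 3 tables of gene models, each for a pair of groups, with 1 FPKM value per group, a p-value, a q-value and the test's statistic, which is treated as a score, per the file headers. The tables call the groups WT, NR1 and NR1Cre, and the sample descriptions assign each table to its pair of GEO groups. Model boundaries and a group's levels differ between tables, so each comparison was made within its table. Depth per sample is unknown, and no values per animal are given, so the p-values are those of the authors' test, and nothing in the labels says whether libraries were made in batches.

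Log2 folds were recomputed from the deposited FPKM without a pseudocount (Python 3.11.15, pandas 2.3.3, scipy 1.17.1). Standard errors are the size of the log2 fold divided by the normal deviate of the deposited two-sided p, and none is given at the smallest p of 5e-05. Locus starts were turned from 0-based to 1-based. Of 27 symbols turned into dates in the table of rescue against knockdown, 26 could be recovered by locus. Cers2 and Myrf were matched by older symbols. The Benjamini-Hochberg and standard error steps were tested on simulated data. The simulated p came from normal deviates, so this cannot show whether the deposited p can be read that way. Named are all 9 myelin genes, Grin1, the called genes of each list or else the pair of smallest p, and 4 genes of most alike pattern; lists of cells outside the lineage are given by counts and called genes. The myelin genes and the lists were chosen with earlier results of these data known. Mbp lies on chromosome 18 and its promoter is not shown. Some genes of the striatal and peripheral myelin lists are not reported here.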

Additional observations from a re-analysis of the deposited data

How the results depend on the processing

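The call of Opalin in knockdown against wild type depended on the threshold: 0 myelin models were called at q under 0.05 and 0 with p taken from the deposited test statistic (Opalin p = 0.126 from the statistic of the authors' table), and 1 remained when q was recomputed over models with at least 1 FPKM (q = 0.0843). With p from the test statistic the lineage lists also had 0 called models in place of 2 in knockdown against wild type and 0 in place of 1 in rescue against knockdown, while q recomputed over models with at least 1 FPKM gave 3 in place of 2 in knockdown against wild type. The statistic is smaller than the deviate that the p-value implies, which by construction lowers the counts. The 85 log2 folds of myelin models recomputed with a pseudocount of 1 FPKM, centred on all models or taken by way of the third group all moved by less than 1 standard error, with Opalin at -0.47 by way of the third group in knockdown against wild type. Leaving out each myelin gene in turn kept the median between -0.06 and -0.05 (knockdown against wild type), -0.06 and -0.04 (rescue against knockdown) and -0.11 and -0.10 (rescue against wild type). No paired analysis was possible because the tables hold 1 value per group, and for the same reason no animal could be left out. Read depth is unknown, so what depth limits for the low models, Opalin and the smaller Mobp model, cannot be stated.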

Other observations

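Levels of a group in its 2 tables usually coincided, but not for all genes. Among 11803 genes with a single tested model in both tables that hold the knockdown group, the median gap was 0.01 on the log2 scale, 11.6% differed by more than 0.1 and 3.04% by more than 0.3. The knockdown level of Grin1 differed by 0.21 (56.7 and 65.7 FPKM) and that of Apod by 0.39 (68.2 and 52.2 FPKM), while the largest gap of any myelin model in any group was 0.05. The cause of these gaps was not tested.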
